A study of Mus musculus with 10 samples.

Results

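The comparison described here is that of nascent transcription at 2 hours against 1 hour of SOX2 depletion. It rests on 4 of the 10 TT_chem-seq libraries of the series, 2 labelled 1 hpd and 2 labelled 2 hpd (hours post depletion), chosen by their labels. All came from a derivative of the mouse embryonic stem cell line E14 whose SOX2 is fused to FKBP, a degron tag, so that dTAG-13 directs the tagged protein to degradation. Depleted cells were given 500 nM dTAG-13 for 0.5, 1, 2 or 6 h and the controls (NT) were given DMSO. Cells of every group, NT included, carried the tagged SOX2 and were grown without serum in LIF, the MEK inhibitor PD0325901 and the GSK3 inhibitor CHIR99021. RNA made in the last 10 min was labelled with 2 mM 4SU, captured and sequenced. Untagged cells given dTAG-13 were not analysed here, so effects of the compound itself and of loss of SOX2 cannot be told apart. The labels number the replicates 1 and 2 but do not say that they are separate cultures, and the p-values measure the spread between these libraries, which may be technical. With 2 libraries in each group, an exact permutation test of a single value cannot give a two-sided p below 0.333, and calls rest on a fit across all units.

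SOX2 is a transcription factor that binds DNA with OCT4 at enhancers of the pluripotency network in embryonic stem cells. Loss of such an activator lowers transcription of its direct targets first, and their products, many of them regulators themselves, then pass the effect on to further genes. Labelling new RNA for a few minutes reads the rate of transcription of a gene, introns included, and not its stable mRNA.

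The libraries held 16437033 and 17704268 fragments at 1 hpd and 21726623 and 16809550 after 2 h, within the range of 11131490 to 25854106 over the series. Fragments were counted in transcribed units (TUs), stretches of continuous transcription on 1 strand, and 28459 of 40779 TUs were tested, 14997 of them with a gene symbol. Across the tested TUs, log2 CPM (fragments scaled to a common library size with TMM factors) of replicates correlated at r of 0.990 after 1 h and 0.989 after 2 h, and TUs are not independent replicates. Counts of the replicates differed more at 2 hpd than at 1 hpd, where chi-square divided by its degrees of freedom was 11.03 against 3.085. All 8 stem cell markers listed were tested, and their summed level was 2980 to 3292 CPM at 1 hpd and 3002 to 3111 after 2 h. Summed markers of other cell types were lower, at 295.2 to 295.5 and then 232.2 to 251.6 CPM for trophoblast, and at 40.1 to 41.1 and then 31.2 to 33.0 CPM for neural cells. The neural markers Sox1 and Neurog2 had no TU, and 1 of the 4 neural markers tested, Tubb3, was called lower. Summed markers of primitive endoderm were at 57.3 to 61.1 CPM at 1 hpd and higher, at 69.6 to 71.4 CPM, at 2 hpd, as were those of fibroblasts, at 22.04 to 24.9 and then 25.7 to 29.8 CPM. Mesoderm markers summed to 19.9 to 20.4 and then 15.9 to 18.3 CPM, and the 1 marker of 2-cell-like cells tested stayed under 1 CPM. The part of rare cells in the results below was not tested, and in bulk RNA fewer cells of a type and less RNA per cell cannot be told apart. The TU of Sox2 itself was at 229 and 255 CPM at 1 hpd and 273 and 288 CPM at 2 hpd (log2 change 0.21 ± 0.11 SE, edgeR adjusted p = 0.928), and it checks no label, since the degron acts on the protein.

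Few TUs were called between 1 and 2 hpd, and most of the TUs called were lower. At a Benjamini-Hochberg adjusted p under 0.05 in edgeR's quasi-likelihood test, 56 TUs were lower at 2 hpd (0.197% of those tested) and 6 were higher (0.0211%). Among the lower TUs were genes that had begun to fall earlier, such as Aoah and Adap1, genes not called at 1 hpd against NT, such as Ncam1, Ndrg1 and Ntrk3, and genes that had first risen, such as Junb and Amotl2. The median of the 56 log2 changes was -0.86, from -2.36 to -0.52, and 22 TUs fell over 2-fold, whereas the median over all tested TUs was 0.02. At an unadjusted p under 0.05, 987 TUs were lower and 665 higher. DESeq2 called 86 lower (0.464% of the 18527 TUs it gave an adjusted p) and 18 higher (0.0972%), and these included 55 of the 56 and all 6 of the edgeR calls. A fit with the replicate number as a block, kept as an alternative, called 209 lower and 61 higher. Leaving out 1 hpd replicate 1 or replicate 2 left 11 lower TUs in each case, and leaving out 2 hpd replicate 1 or 2 left 22 and 23. Without 6 hpd replicate 2, which enters only through the shared estimate of spread, 35 lower TUs were called.

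**Figure D1:**
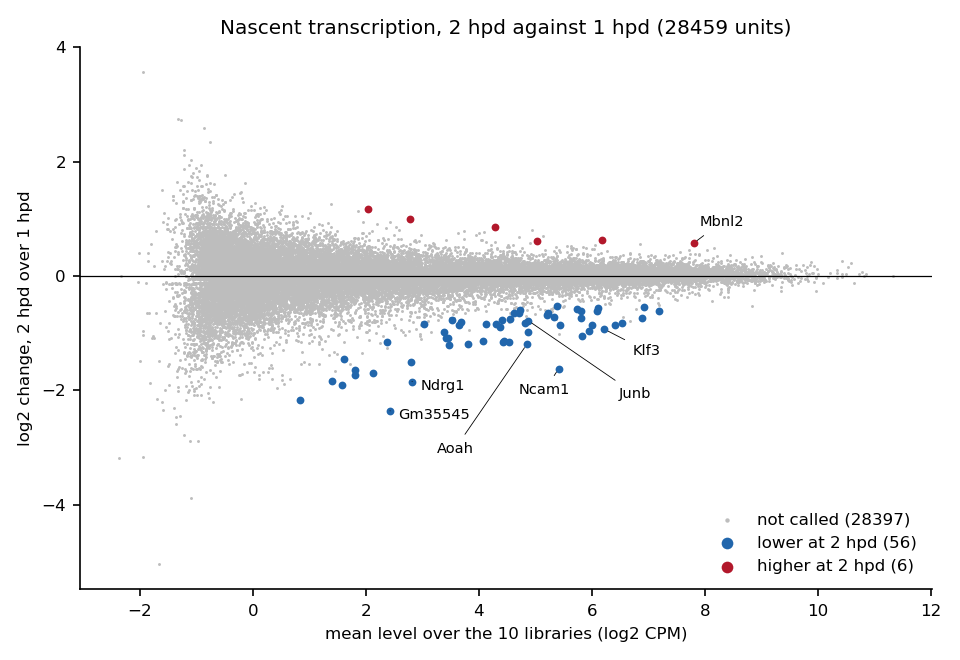
Log2 change of each of 28459 TUs from 1 to 2 hpd (y axis) against its mean level over the 10 libraries in log2 CPM (x axis). Blue points are the 56 TUs called lower and red points the 6 called higher, and grey points were not called. The called TUs lie away from the floor of low levels, where grey points spread the most.

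The lower TUs were also read in the 0.5 and 6 hpd libraries, which entered the comparison only through the shared estimate of spread. The contrast of 6 against 0.5 hpd uses neither the 1 nor the 2 hpd libraries. Calls in both contrasts depend on the shared spread and on depth, so the shares of all TUs given beside them are not matched. Of the 56, 54 were called lower and 0 were called higher, beside 5.67% lower and 3.81% higher among all tested TUs. The exceptions were Map2k6 and Isoc2a, at log2 changes of 0.22 ± 0.13 and -0.25 ± 0.10 (SE, edgeR adjusted p = 0.328 and 0.134). Against NT, 48 of the 56 were down at 6 hpd, as were 9.2% of all TUs, and none was up (0 of 56, beside 6.61% of all). The mean level at 6 hpd was below that at 2 hpd in 42 of the 56 and above it in 14. All 6 higher TUs were also higher at 6 than at 0.5 hpd.

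**Figure D2:**
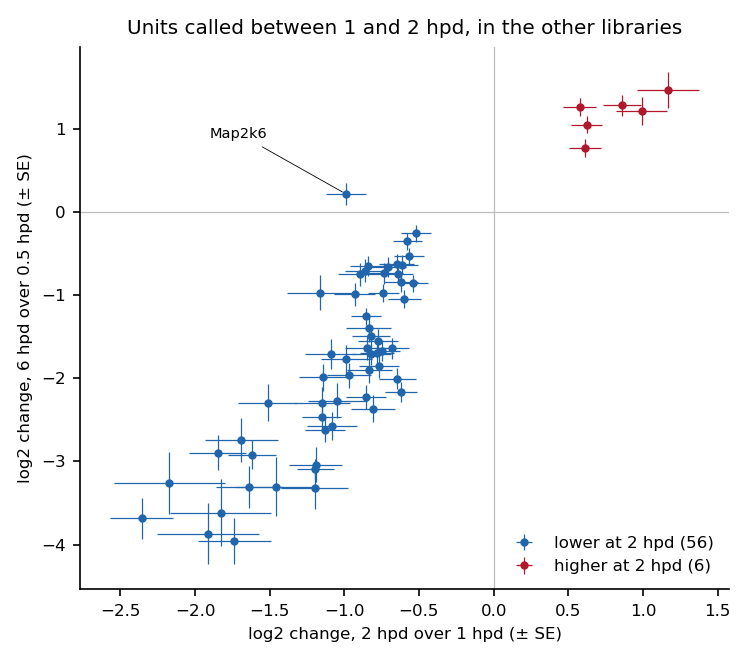
Log2 change from 1 to 2 hpd (x axis) and from 0.5 to 6 hpd (y axis) of the 62 called TUs, with SE bars. The contrasts share no library but share the estimate of spread. Blue TUs were lower and red TUs higher at 2 hpd, and Map2k6 is the 1 blue point above 0 on the y axis.

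The 56 lower TUs were long. Their median length was 48.8 kb, against 12.6 kb over all tested TUs, and their median depth was 448 fragments per library against 58.8. Depth and length go together, so the share called was also read in TUs averaging 200 or more fragments. Among these, median depth still rose with length, at 352, 650, 1432 and 2221 fragments from the shortest class to the longest. Length and depth were therefore not separated. The share called was 0 of 476 TUs up to 10 kb, 20 of 5668 (0.353%) from 10 to 50 kb, 11 of 2347 (0.469%) from 50 to 100 kb and 12 of 1502 (0.799%) above 100 kb. In these long TUs the 2 hpd replicates stood apart, with a median log2 difference from the 1 hpd library of the same number of 0.18 for replicate 1 and -0.06 for replicate 2, and the part of this in the calls was not tested. In the deposited classes, 38 of the lower TUs were associated with a gene (0.254% of that class were called lower), 10 were extragenic (0.128%) and 8 lay antisense to a gene (0.0446% to 0.337% over the 3 antisense classes). Of the 10 listed as extragenic, 5 lie in a RefSeq coding gene on the same strand.

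The first pattern was a fall already under way that went on. Of the 56 lower TUs, 18 were also called down at 1 hpd against NT, as were 3.61% of all TUs, a contrast that shares the 1 hpd libraries. Their median length was 83.9 kb. Their median log2 change against NT was -0.33 after 0.5 h, -0.93 after 1 h, -1.88 after 2 h and -2.33 after 6 h, and all 18 were down at 6 hpd. The count was 2 without either of the 1 hpd libraries, 5 without either of the 2 hpd libraries, 11 without 6 hpd replicate 2 and 8 without NT replicate 2.

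Aoah encodes acyloxyacyl hydrolase, an enzyme that removes fatty acid chains from bacterial lipopolysaccharide. Its TU (chr13:20936410-21031234 on mm10, plus strand) covers 51.1% of the annotated gene. It was at 139.7 and 144.9 CPM in NT, 80.4 and 70.9 after 0.5 h, 22.1 and 20.9 after 1 h, 9.61 and 9.18 after 2 h, and 8.29 and 9.43 after 6 h. Each pair of libraries up to 2 hpd lay below the pair before it, and the 2 and 6 hpd pairs overlapped. From 1 to 2 hpd the level fell 2.29-fold (log2 change -1.19 ± 0.12 SE, edgeR adjusted p = 0.000601). Adap1, which encodes a GTPase-activating protein for the small GTPase ARF6, moved in the same steps. It was at 50.4 and 44.3 CPM in NT, 19.0 and 15.4 after 1 h, 8.34 and 7.19 after 2 h and 8.22 and 6.52 after 6 h. Its 1 to 2 hpd change was -1.14 ± 0.16 (SE, edgeR adjusted p = 0.00848), and it too had levelled off by 6 hpd, since the 2 and 6 hpd libraries overlapped. Without 1 hpd replicate 1, and again without 2 hpd replicate 2, Adap1 was not called.

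The TU at Ttn, the gene of the giant muscle protein titin, covers 37.4% of the annotated gene. It was at 58.6 and 69.6 CPM in NT, 26.6 and 23.8 after 1 h, 15.3 and 13.2 after 2 h and 15.8 and 14.3 after 6 h (log2 change from 1 to 2 hpd -0.82 ± 0.13 SE, edgeR adjusted p = 0.0166). Irak3, which encodes a kinase-like inhibitor of Toll-like receptor signalling, went on falling to 6 hpd. Its levels were 40.3 and 39.7 CPM after 1 h, 27.4 and 22.3 after 2 h and 17.8 and 16.5 after 6 h, with no overlap between successive pairs. The other gene-associated TUs of this pattern were Srgap3, Syndig1, Tgfbr3, Gm36038, Lemd1, Gm281, Srrm4os and Cadps. Srgap3 encodes a GTPase-activating protein, Syndig1 a synaptic membrane protein and Cadps a protein that primes vesicles for release. Both 6 hpd libraries lay above both 2 hpd libraries for Cadps (3.37 and 3.73 against 2.12 and 2.63 CPM) and for Srgap3 (15.6 and 18.1 against 10.1 and 11.6 CPM), a difference that was not tested. Gm36038, a long non-coding RNA near Tfap2c, and the extragenic TU that follows it 1.83 kb downstream on the same strand fell together, by 0.62 ± 0.11 and 0.86 ± 0.14 on the log2 scale (SE).

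The second pattern was a fall seen at 2 hpd in TUs that were not called at 1 hpd. Of the 56 lower TUs, 30 were called neither up nor down at 1 hpd. Their median log2 change against NT was 0.28 after 0.5 h, 0.09 after 1 h, -0.87 after 2 h and -1.38 after 6 h. By 2 hpd 25 of the 30 were down against NT (5.57% of all TUs), a contrast that shares the 2 hpd libraries that chose them, so nothing is read from the count. At 6 hpd 26 were down. A missed call at 1 hpd does not show that a level had not moved.

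Gm35545, a long non-coding RNA (chr16:19177157-19265465, plus strand), had the lowest log2 change of the 56. It was at 10.7 and 11.3 CPM in NT, 15.1 and 11.8 after 0.5 h, 12.4 and 10.4 after 1 h, 2.58 and 1.81 after 2 h and 0.913 and 1.17 after 6 h. The 1 hpd libraries overlapped those of NT and of 0.5 hpd, both 0.5 hpd libraries lay above both NT libraries, and the fall of 5.13-fold took place within 1 h (log2 change -2.36 ± 0.21 SE, edgeR adjusted p = 0.00038). A further extragenic TU 7.37 kb upstream on the same strand was at 3.39 and 1.82 CPM at 1 hpd and 0.657 and 0.468 CPM at 2 hpd, a log2 change of -2.17 ± 0.37 (SE). On the opposite strand of Gm35545, an antisense TU first rose, from 20.9 and 22.4 CPM in NT to 39.1 and 46.1 after 1 h, and then fell to 20.3 and 18.0 after 2 h and 6.32 and 7.34 after 6 h. Its change from 1 to 2 hpd was -1.15 ± 0.13 (SE, edgeR adjusted p = 0.00153). The strands of this locus thus had different levels at 1 hpd relative to NT and fell in the same hour.

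Ncam1 (chr9:49501802-49798907, minus strand), the neural cell adhesion molecule, was at 74.5 and 67.4 CPM at 1 hpd, against 87.8 and 90.9 in NT, and at 27.9 and 18.1 CPM at 2 hpd. The 6 hpd libraries were lower still, at 11.9 and 10.8 CPM, and the fall from 1 to 2 hpd was 3.07-fold (log2 change -1.62 ± 0.16 SE, edgeR adjusted p = 0.000601). Ndrg1 (chr15:66925473-66969465, minus strand), a gene induced by stress and differentiation, went from 11.1 and 14.8 CPM at 1 hpd to 3.89 and 3.27 after 2 h, a fall of 3.60-fold (log2 change -1.85 ± 0.19 SE, edgeR adjusted p = 0.000601). Both of its 0.5 hpd libraries, at 14.2 and 17.4 CPM, lay above its NT libraries, at 10.3 and 10.4. Pla2g4e, a cytosolic phospholipase A2, went from 30.9 and 30.1 to 14.4 and 13.4 CPM (-1.13 ± 0.13 SE, edgeR adjusted p = 0.00186). Among the named TUs, these 3, Gm35545, Aoah, the antisense TU at Gm35545 and another at Gm20611 kept their calls under each alternative run.

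Ntrk3, the receptor for neurotrophin-3, was at 24.0 and 25.2 CPM at 1 hpd, level with 24.0 and 26.1 in NT, then at 13.3 and 8.06 CPM at 2 hpd and at 2.81 and 3.38 CPM at 6 hpd. Its change from 1 to 2 hpd was -1.19 ± 0.18 (SE, edgeR adjusted p = 0.0113), and the 2 hpd libraries differed from each other more than those of any other group. Stmn2, a regulator of neuronal microtubules, was at 94.3 and 77.4 CPM at 1 hpd and 51.9 and 31.0 CPM at 2 hpd. Tubb3, the neuronal beta-tubulin, was at 16.7 and 14.7 CPM and then 9.10 and 9.23 CPM. Ntn1, the axon guidance cue netrin-1, was at 83.7 and 74.1 CPM and then 46.4 and 34.2 CPM. None of the 4 was called at 1 hpd against NT. They were taken from the lower TUs after their values were seen, and of the other neural markers tested Map2, Pax6 and Nes had log2 changes of 0.17 ± 0.32, -0.13 ± 0.21 and -0.19 ± 0.16 (SE) and were not called.

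Brca2, which acts in DNA repair by homologous recombination, was above NT in both libraries at 0.5 hpd (165 and 157 CPM against 120 and 130 CPM) and at 1 hpd (153 and 155 CPM). It then fell to 98.6 and 85.7 CPM at 2 hpd, below both NT libraries (log2 change -0.74 ± 0.10 SE, edgeR adjusted p = 0.00848). The TU extends 2.35 times the length of the annotated gene. Map2k6, the kinase that activates p38, was not called between 0.5 and 6 hpd, as given above. It was at 37.6 and 41.6 CPM in NT, 32.5 and 36.8 after 1 h, 16.6 and 18.4 after 2 h and 28.9 and 34.5 after 6 h. The change from 1 to 2 hpd was -0.99 ± 0.14 (SE, edgeR adjusted p = 0.00817), and the call was lost without 1 hpd replicate 2 and without 2 hpd replicate 1.

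**Figure D3:**
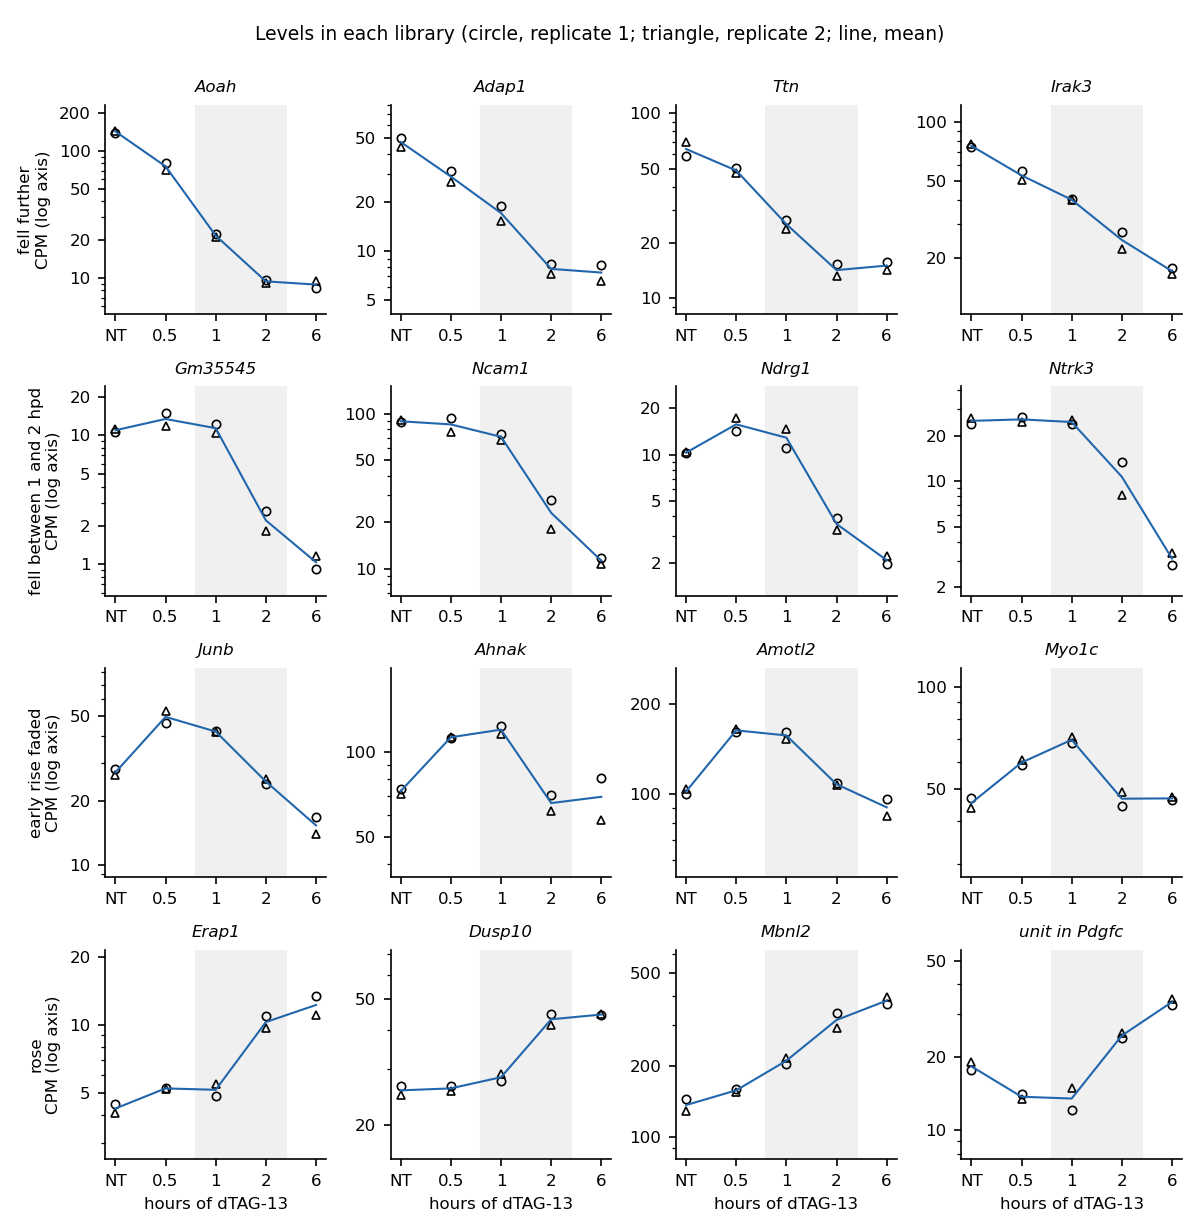
Level of 16 TUs in each library in CPM (log axis) in NT cells and at 0.5, 1, 2 and 6 h of dTAG-13, with circles for replicate 1, triangles for replicate 2, a line through the means and the hour from 1 to 2 hpd shaded. Rows show TUs that fell further, fell between 1 and 2 hpd, faded after an early rise, or rose. Aoah and Adap1 lie flat after 2 hpd, whereas Ntrk3 and Ncam1 continued down to 6 hpd.

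Genes of the Klf family stood out among the names of the lower TUs, and the family was chosen after these values were seen. Klf proteins are zinc finger transcription factors that bind GC-rich and CACCC elements, and Klf2, Klf4 and Klf5 belong to the naive pluripotency network. Of 14 Klf genes tested, 6 were called lower at 2 hpd (Klf3, Klf11, Klf16, Klf8, Klf10 and Klf13) and 0 higher, beside 0.197% and 0.0211% of all TUs. The other 8 were not called and include all 3 pluripotency factors. The median log2 change of all 14 was -0.40, with 10 negative and 4 positive, against 0.02 for all TUs. That of the 8 left uncalled was -0.04, with 4 negative and 4 positive, and the call itself made this split.

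Klf3, a repressor that recruits CtBP, was at 88.3 and 67.9 CPM in NT, 110.2 and 104.6 after 0.5 h, 106 and 91.1 after 1 h, 55.0 and 48.1 after 2 h and 59.1 and 49.4 after 6 h. The 1 hpd libraries lay above both NT libraries and the 2 hpd libraries below them (log2 change from 1 to 2 hpd -0.93 ± 0.14 SE, edgeR adjusted p = 0.0106). Klf11, a repressor induced by TGF-beta, was at 21.5 and 18.6 CPM in NT, 24.6 and 24.9 after 1 h, 13.6 and 14.1 after 2 h and 17.4 and 15.9 after 6 h (-0.84 ± 0.12 SE, edgeR adjusted p = 0.0105). Klf10, also induced by TGF-beta, was at 66.2 and 64.8 CPM at 1 hpd, above 55.5 and 53 in NT, and at 40.2 and 45.4 CPM at 2 hpd. Klf8 was at 193 and 187 CPM and then 138 and 110 CPM, Klf16 at 47.2 and 49.1 and then 26.9 and 32.1 CPM, and Klf13 at 80.8 and 74.8 and then 52.4 and 52.8 CPM.

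None of the 6 was called against NT at 0.5 or 1 hpd, and 4 of them were called down at 2 hpd. All 6 were among the 54 of 56 called lower at 6 than at 0.5 hpd, at log2 changes from -0.99 (Klf3) to -0.53 (Klf13). In 5 of the 6, all but Klf8, the mean level at 6 hpd lay above that at 2 hpd. The uncalled members held other courses. Klf2 had dropped before the hour in question, from 76.9 and 79.1 CPM in NT to 6.46 and 7.29 after 1 h, and was at 5.26 and 6.84 CPM at 2 hpd (log2 change -0.19 ± 0.16 SE). Klf4 was at 51.2 and 63.5 CPM at 1 hpd and 48.4 and 67.6 CPM at 2 hpd (0.01 ± 0.17 SE). Klf15, Klf12 and Klf9 had negative log2 changes that were not called, of -0.42 ± 0.16, -0.38 ± 0.29 and -0.09 ± 0.10 (SE). Klf5, Klf7 and Klf6 had positive log2 changes that were not called, of 0.24 ± 0.11, 0.31 ± 0.10 and 0.41 ± 0.13 (SE). Each of the 6 calls was lost when some library was left out, from 2 alternatives for Klf3 to 9 for Klf8, with the direction kept under each.

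**Figure D4:**
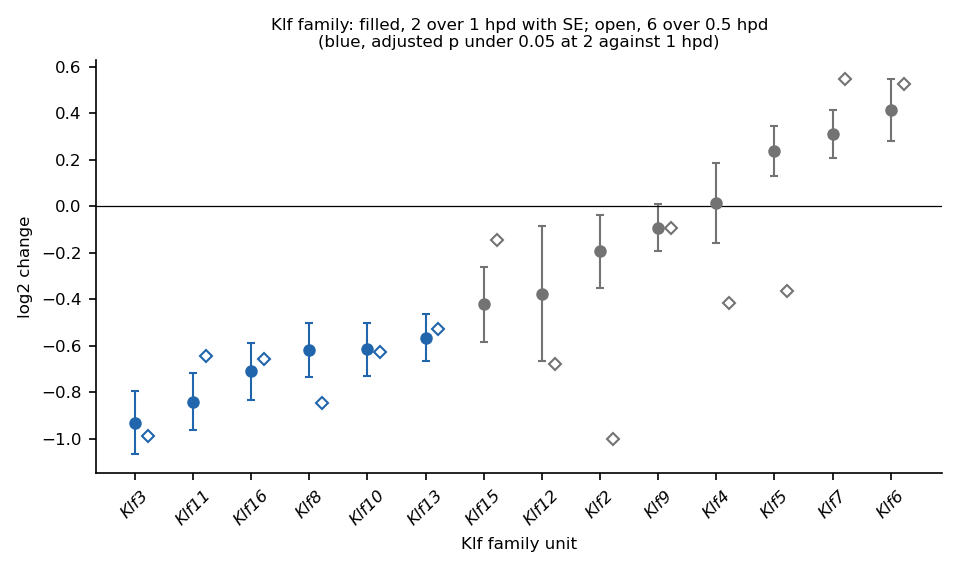
Log2 change of the 14 Klf TUs from 1 to 2 hpd with SE (filled circles) and from 0.5 to 6 hpd (open diamonds, other libraries). Blue marks the 6 TUs called lower at 2 than at 1 hpd, which have both symbols below 0.

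Promoters of the Klf genes that fell together are shown because these genes encode binders of the element searched for. RefSeq promoters on GRCm38.p6, from 250 bases before to 50 after the annotated start, matched 4 of the 6 genes, and Klf10 and Klf16 are named only. Capitals mark CCNCNCCC, the general Klf element, on either strand, where overlapping matches run together. Matches numbered 10 for Klf3 (chr5:64803271-64803570, plus strand), 5 for Klf11 (chr12:24651121-24651420, plus strand), 5 for Klf13 (chr7:63938866-63939165, minus strand) and 3 for the first of the starts of Klf8 (chrX:153237498-153237797, plus strand). The annotated starts of Klf3 and Klf13 lie 6274 and 4104 bases inside their TUs, so these promoters are not where the measured units begin. The first start of Klf8 and that of Klf11 lie 310 bases inside and 5 bases before the start of the TU. A second start of Klf8, with 4 matches, lies 122175 bases inside its TU and is not printed. Each sequence is written 5′ to 3′ on the strand of its gene.
Klf3: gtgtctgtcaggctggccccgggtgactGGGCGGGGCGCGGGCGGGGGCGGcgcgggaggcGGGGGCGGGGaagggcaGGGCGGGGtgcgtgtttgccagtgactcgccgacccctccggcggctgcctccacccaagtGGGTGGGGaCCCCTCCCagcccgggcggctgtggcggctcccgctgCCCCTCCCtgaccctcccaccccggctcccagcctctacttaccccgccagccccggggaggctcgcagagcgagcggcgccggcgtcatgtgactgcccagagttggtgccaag
Klf11: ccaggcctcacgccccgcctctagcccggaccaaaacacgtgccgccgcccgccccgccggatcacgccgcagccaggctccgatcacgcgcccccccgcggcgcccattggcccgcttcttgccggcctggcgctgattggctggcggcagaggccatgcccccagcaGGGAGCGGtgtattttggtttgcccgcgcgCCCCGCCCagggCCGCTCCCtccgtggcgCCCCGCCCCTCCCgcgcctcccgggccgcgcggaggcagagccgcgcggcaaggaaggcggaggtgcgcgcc
Klf13: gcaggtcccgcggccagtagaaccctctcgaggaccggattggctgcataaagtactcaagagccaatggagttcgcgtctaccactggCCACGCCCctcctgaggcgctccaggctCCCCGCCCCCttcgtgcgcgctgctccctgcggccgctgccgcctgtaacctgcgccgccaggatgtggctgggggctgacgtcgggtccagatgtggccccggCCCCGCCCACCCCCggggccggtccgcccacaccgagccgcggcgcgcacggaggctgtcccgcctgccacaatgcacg
Klf8: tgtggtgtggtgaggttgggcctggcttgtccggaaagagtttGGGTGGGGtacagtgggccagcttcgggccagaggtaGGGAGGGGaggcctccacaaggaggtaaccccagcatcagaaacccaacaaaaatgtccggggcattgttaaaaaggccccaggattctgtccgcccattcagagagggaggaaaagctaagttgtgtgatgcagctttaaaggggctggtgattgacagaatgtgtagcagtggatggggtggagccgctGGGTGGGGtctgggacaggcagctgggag
The element is common, since 49.5% of the 32851 promoters of the table held it, and 6 of the 7 promoters found for the uncalled Klf genes did too. It was present in 23 of 33 promoters of the lower TUs with a symbol (69.7%), for 26 of the 38 genes. The SOX motif AACAATG, searched on either strand, was in 2 of these 33 promoters (6.06%), those of Map2k6 and Klf8, and in 3.78% of all promoters. The matches describe the sequence only.

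The third pattern was an early rise that faded. Of the 56 lower TUs, 8 were called up at 1 hpd against NT, as were 2.15% of all TUs, a contrast that shares the 1 hpd libraries. Their median log2 change against NT was 0.66 after 0.5 h, 0.66 after 1 h, -0.14 after 2 h and -0.50 after 6 h. None was called up at 2 hpd (0 of 8, 4.26% of all TUs), which again rests on the 2 hpd libraries that chose them, and 4 were called down at 6 hpd. The count was 1 without either of the 1 hpd libraries, 4 without either of the 2 hpd libraries and 4 without 6 hpd replicate 2, and it was 15 with DESeq2.

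Junb, an AP-1 subunit and a target of LIF and STAT3 signalling, was at 28.0 and 26.2 CPM in NT, 46.4 and 52.5 after 0.5 h, 42.3 and 42.0 after 1 h, 23.8 and 25.3 after 2 h and 16.6 and 13.9 after 6 h. Both 2 hpd libraries lay below both NT libraries, so the whole of the rise was gone within the hour (log2 change from 1 to 2 hpd -0.78 ± 0.12 SE, edgeR adjusted p = 0.0113). Its TU (chr8:84966022-84990904, minus strand) of 24.9 kb is 13.5 times as long as the annotated gene and also overlaps Rnaseh2a on the same strand. Ahnak, which encodes a very large scaffold protein, was at 74.2 and 71.1 CPM in NT, 124 and 116 after 1 h, 70.2 and 61.7 after 2 h and 81.2 and 57.6 after 6 h (-0.86 ± 0.13 SE, edgeR adjusted p = 0.0152). Its 6 hpd libraries enclosed the NT level.

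Amotl2, an angiomotin-like protein of the Hippo pathway, was at a mean of 102 CPM in NT, 162 and 165 after 0.5 h, 161 and 153 after 1 h, 109 and 107 after 2 h and 96.4 and 84.3 after 6 h (-0.54 ± 0.10 SE, edgeR adjusted p = 0.0375). The 2 hpd libraries lay just above both NT libraries. Myo1c, an unconventional myosin, was at 46.9 and 43.8 CPM in NT, 68.4 and 71.0 after 1 h, 44.5 and 48.9 after 2 h and 46.4 and 47.2 after 6 h, and thus returned to NT and stayed (-0.58 ± 0.10 SE, edgeR adjusted p = 0.0283). Isoc2a did likewise, with 54.9 and 50.8 CPM at 1 hpd and 36.9 and 36.8 CPM at 2 hpd, against 40.4 and 38.9 CPM in NT. 9030404E10Rik, a long non-coding RNA, was at 12.3 and 12.9 CPM at 1 hpd, 7.13 and 6.96 CPM at 2 hpd and 4.50 and 3.96 CPM at 6 hpd, below 8.14 and 7.56 CPM in NT. After 2 hpd the TUs of this pattern therefore parted, with Myo1c, Isoc2a and Ahnak near NT at 6 hpd, and Junb and 9030404E10Rik called down there.

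A wider view of fading came from TUs chosen at 0.5 hpd against NT. The 0.5 hpd and NT libraries enter the 2 against 1 hpd comparison only through the shared estimate of spread. Of the 150 TUs up at 0.5 hpd (0.527% of all), 7 were called lower (4.67%, beside 0.197% of all TUs) and 0 higher (0.0211% of all) at 2 than at 1 hpd. Their median log2 change over the hour was -0.18, and both 2 hpd libraries lay below both 1 hpd libraries in 82 of the 150 (54.7%) and above them in 21. Over all tested TUs these shares were 16.4% and 17.0%. The median against NT was 0.75 after 0.5 h, 0.82 after 1 h, 0.60 after 2 h and 0.39 after 6 h. Called up at 1, 2 and 6 hpd were 131, 101 and 72 of the 150, beside 2.15%, 4.26% and 6.61% of all TUs. These contrasts share the NT libraries that chose the 150, so part of these values follows from the choice. The median over the hour was -0.13 without 2 hpd replicate 1 and lay between -0.23 and -0.13 over all single libraries left out.

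Medians by length were lower for the shorter of these early risers. In the shortest 50 the median change from 1 to 2 hpd was -0.29, in the middle 50 it was -0.17 and in the longest 50 it was -0.09. Over all tested TUs the median also differed with length, at -0.01 up to 10 kb and 0.07 above 100 kb. The difference between length classes was not tested. The 5 risers with the smallest p at 0.5 hpd held different courses. Zc3h12a, an RNase that limits inflammatory mRNAs, was at 20.3 and 16.1 CPM in NT, 45.2 and 44.1 after 1 h and 26.6 and 28.6 after 2 h, just outside the threshold (log2 change -0.69 ± 0.13 SE, edgeR adjusted p = 0.0515), and it was called lower in 8 of 17 alternatives. Icam1, an adhesion molecule, was at 124 and 123 CPM and then 93.9 and 102 CPM, and Rasa4, a GTPase-activating protein for RAS, at 92.9 and 91.6 and then 72.4 and 72.5 CPM. Gpr4, a proton-sensing receptor, had a log2 change of -0.41 ± 0.17 (SE). Slc28a3, a nucleoside transporter, held its rise, with 38.4 and 39.2 CPM at 1 hpd and 39.8 and 34.8 CPM at 2 hpd, against 12.4 and 13.4 CPM in NT (-0.05 ± 0.12 SE).

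For early fallers, chosen by a fall at 0.5 hpd against NT, a large median fall before 1 hpd was set by the choice. Of the 224 TUs down at 0.5 hpd (0.787% of all), 5 were called lower (2.23%, beside 0.197% of all TUs) and 0 higher at 2 than at 1 hpd, with a median log2 change of -0.13. Both 2 hpd libraries lay below both 1 hpd libraries in 37.1% of them and above in 11.6%. The median against NT was -1.01 after 0.5 h, -1.49 after 1 h, -1.59 after 2 h and -1.72 after 6 h. Still called down at 6 hpd were 219 of the 224, beside 9.2% of all TUs. These contrasts share the NT libraries that chose the 224. The median over the hour was -0.23 without 2 hpd replicate 2 and lay between -0.23 and -0.07 over all single libraries left out. The 5 that fell further include Aoah, Adap1, Irak3 and Gm36038, described above. Of the 5 early fallers with the smallest p, none was called between 1 and 2 hpd. Besides Klf2 these were Platr11, Gm33006, 2500002B13Rik and Mroh4. Platr11, a long non-coding RNA tied to pluripotency, was at 17.0 and 19.1 CPM in NT, 1.50 and 1.37 after 1 h and 0.860 and 0.994 after 2 h (-0.63 ± 0.28 SE, edgeR adjusted p = 0.851).

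**Figure D5:**
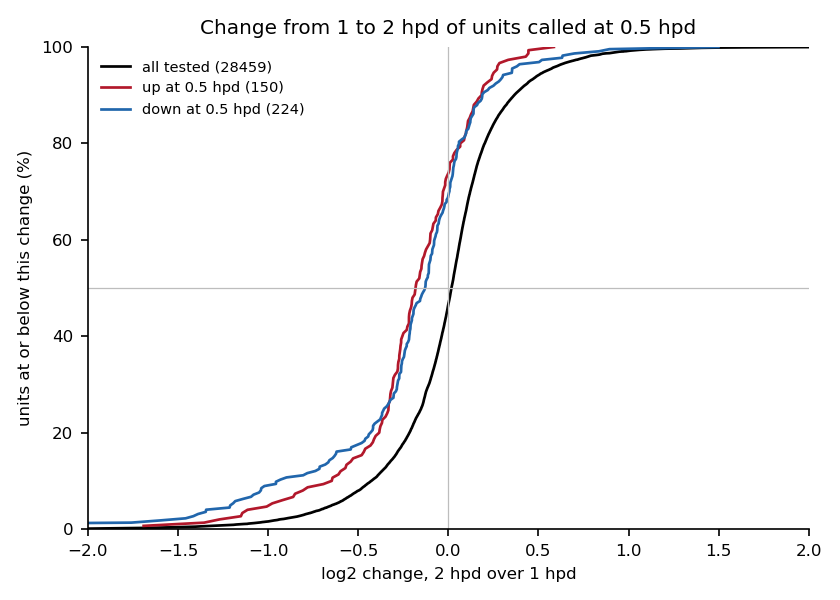
Cumulative share of TUs in percent (y axis) by log2 change from 1 to 2 hpd (x axis, shown from -2 to 2) for all 28459 tested TUs, the 150 up at 0.5 hpd and the 224 down at 0.5 hpd. Both early sets lie to the left of all TUs, with medians of -0.18 and -0.13 against 0.02.

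The 6 higher TUs had log2 changes of 0.58 or more, and 5 of them are described here. Erap1, an aminopeptidase that trims peptides for antigen presentation, was at 4.83 and 5.47 CPM at 1 hpd and 10.9 and 9.64 CPM at 2 hpd (0.99 ± 0.17 SE). Dusp10, a phosphatase that inactivates p38 and JNK, was at 27.6 and 29.0 CPM and then 45 and 41.4 CPM (0.61 ± 0.10 SE). Mbnl2, a regulator of splicing, was the 1 higher TU already up at 1 hpd, at 145 and 129 CPM in NT, 205 and 218 after 1 h, 339 and 292 after 2 h and 370 and 394 after 6 h. The other 2 were listed as extragenic but lie in RefSeq genes on the same strand, 1 in Pdgfc (0.86 ± 0.13 SE) and 1 in Arid5b (0.62 ± 0.10 SE). The TU in Pdgfc, the gene of a growth factor, was at 17.6 and 19.0 CPM in NT, 12.2 and 14.9 after 1 h, 24.0 and 25.1 after 2 h and 32.8 and 34.7 after 6 h. It thus lay below NT before it rose above it. No higher TU was called in edgeR without 1 hpd replicate 1 (0), 1 was without 1 hpd replicate 2 and 3 were without 2 hpd replicate 1.

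Few genes of the pathway lists were called over this hour, as were few of all TUs (0.197% lower and 0.0211% higher). Of the 16 lists, 13 had no member called in either direction, which at these shares says little about a list. None of 9 mevalonate pathway genes tested was called, with a median log2 change of 0.14 and both 2 hpd libraries above both 1 hpd libraries in 6 of them (17.0% of all TUs). For 13 genes from squalene to cholesterol the median was 0.09 with 6 above, and for 10 genes of fatty acid synthesis 0.18 with 5 above. Against NT, 8 of 9, 11 of 13 and 4 of 10 genes of these lists were called up at 1 hpd (2.15% of all TUs), and 8, 11 and 8 at 2 hpd (4.26%). For 9 genes of sterol sensing and uptake the median was 0.09, with no call. Hmgcs1, an early enzyme of the mevalonate pathway, was at 350 and 342 CPM at 1 hpd and 382 and 342 CPM at 2 hpd, against 142.9 and 126.5 CPM in NT (0.07 ± 0.12 SE).

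No pluripotency gene was called among 26 tested (0 lower and 0 higher, beside 0.197% and 0.0211% of all TUs), with a median of -0.03. At these shares the lack of calls says little about the list. Nr0b1, a nuclear receptor of that network, had the smallest p of the list and was at 22.4 and 29.9 CPM in NT, 6.65 and 5.75 after 1 h and 8.60 and 10.6 after 2 h (0.63 ± 0.19 SE, edgeR adjusted p = 0.375). Among 9 genes of LIF and STAT3 signalling, 1 was called lower (Junb), beside 0.197% of all TUs, and the median was -0.25. Both 2 hpd libraries lay below both 1 hpd libraries in 6 of the 9 (16.4% of all TUs). Socs3 and Pim3, feedback and kinase targets of STAT3, had log2 changes of -0.65 ± 0.19 and -0.58 ± 0.14 that were not called (SE, edgeR adjusted p = 0.343 and 0.173). Among 6 Hippo pathway targets, Amotl2 was called lower, beside 0.197% of all TUs. The others, Ctgf and Ajuba among them at -0.36 ± 0.21 and -0.58 ± 0.14 (SE), were not. Of 11 immediate early genes Junb was again the 1 called (0.197% of all TUs were called lower), and 6 of the 11 changes were negative (46.6% of all TUs). Fos, Jun and Atf3 had log2 changes of 0.07 ± 0.32, 0.41 ± 0.34 and 0.43 ± 0.13 (SE), and Nr4a1, Myc and Btg2 of -0.53 ± 0.14, -0.51 ± 0.33 and -0.29 ± 0.19 (SE). The feedback genes of FGF and ERK signalling, Nodal and BMP, Wnt targets and the primed state had medians of 0.18, 0.10, 0.13 and 0.01 with no call among 11, 12, 10 and 8 genes tested. Pou3f1, a factor of the primed state, was at 0.376 and 0.399 CPM at 1 hpd and 1.16 and 0.877 CPM at 2 hpd (1.39 ± 0.43 SE, edgeR adjusted p = 0.419). Lists of NF-kB targets, heat shock, p53 targets and amino acid stress genes had medians of -0.04, -0.14, -0.03 and 0.07 and no call. In 8 of the 16 lists the sign of the median turned over when some library was left out, namely pluripotency, primed state, Nodal and BMP, Wnt, immediate early, NF-kB, heat shock and p53, with the widest span for Nodal and BMP (-0.25 to 0.10). Suv39h1, a histone methyltransferase, and Top1, a topoisomerase, were at log2 changes of -0.01 ± 0.10 and 0.19 ± 0.15 (SE).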

How the data were processed

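Nascent RNA was measured by TT_chem-seq in 10 libraries, and groups were taken from the sample labels. The authors deposited 1 table of raw fragment counts per TU, with each TU called on pooled data of a strand by a 2-state hidden Markov model on bins of 200 bp and then associated with RefSeq genes. Per the submitters' processing notes BWA 0.7.17-r1188, SAMtools 1.10 and Picard 2.12.0 were used with mm10. Positions are as deposited, and starts may lie 1 base low when counted from 1.

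A TU was tested where 2 or more libraries each held over 10 of its fragments (28459 of 40779), and the others held 0.316% of fragments. The counts were normalized with TMM factors and fitted in edgeR 4.0.16 (R 4.3.3) by quasi-likelihood with 1 coefficient per group and no covariates over all 10 libraries, and p-values were adjusted by Benjamini-Hochberg over all tested TUs. The SE of a log2 change is its size divided by the square root of F. Scripts were tested on simulated data. Named genes were up to 10 higher TUs, the 15 lower TUs with a symbol, the smallest p and no overlap of libraries, the 5 faded risers, the 5 early risers and 5 early fallers with the smallest p, 1 gene per list, that of smallest p, 7 fixed genes (Ctgf, Hmgcs1, Klf2, Platr11, Sox2, Suv39h1 and Top1) and 3 TUs without a symbol. Other names were added after their values were seen. The members, lists and tests were chosen with earlier results of these data known. Alternatives were DESeq2 1.42.0, RLE factors, total counts, no filter, a mean of at least 50 fragments, a block for the replicate number, a fit on only the 4 libraries compared, and each library left out. Promoters came from RefSeq on GRCm38.p6. PCR reads carried no molecular identifiers, and fragment counts are not counts of molecules. Some genes that these rules name are not reported here.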

Additional observations from a re-analysis of the deposited data

How the results depend on the processing

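Between 1 and 2 hpd, 56 TUs were lower and 6 higher. DESeq2 gave 86 and 18, the replicate number as a block 209 and 61 (with all 56 and 6 kept, and with Socs3, Pim3, Ajuba, Nr4a1 and Zc3h12a lower at adjusted p = 0.0210, 0.0246, 0.0104, 0.0199 and 0.0040), and the fit on only the libraries compared gave 2 higher. Leaving out 1 library gave 11 to 65 lower and 0 to 7 higher. TUs down at 1 hpd and then lower numbered 18, with the block 53, and 2 to 20 with 1 library left out. TUs up at 1 hpd and then lower numbered 8, with DESeq2 15, with the block 58, and 1 to 10 with 1 library left out. TUs also lower at 6 than at 0.5 hpd numbered 54, with the block 195, and 10 to 60 with 1 library left out. The median change of the early risers, -0.18, was -0.124 with DESeq2, -0.143 with a mean of at least 50 fragments, -0.126 with the block and -0.235 to -0.128 with 1 library left out. That of the early fallers, -0.13, was -0.230 to -0.0686 with 1 library left out. No called TU among the named ones changed direction, and 7 of the 27 called among 54 named kept their call in every alternative. The sign turned in 8 uncalled TUs. With 1 library left out their log2 changes ran from -0.156 to 0.00711 (Slc28a3), -0.240 to 0.0192 (2500002B13Rik), -0.0339 to 0.618 (Sp5), -0.0430 to 0.00596 (Suv39h1), -0.0839 to 0.388 (Top1), -0.0176 to 0.114 (Hmgcs1), -0.966 to 0.00675 (Klf12) and -0.277 to 0.237 (Klf4). Klf4 was also at -0.00274 with total counts, -0.00147 with a mean of at least 50 fragments and -0.00435 with only the libraries compared. Deviations of same-numbered libraries correlated at 0.0742 to 0.291, over 0.1 in 8 of 10 pairs of groups but not in all. The labels tie the numbers to no shared culture or day, so the block stayed an alternative. With 2 libraries a group, TUs with few fragments could show large changes only, and a missed call does not show that a level held. The causes of these differences were not tested.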
